A study of Homo sapiens with 6 samples.

Results

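The genes of endoplasmic reticulum (ER)-associated degradation, ERAD, were followed under ER stress in Daoy, an established human cell line derived from a medulloblastoma. The 36 genes were listed by their known roles, at a time when earlier results of these data were known: mannosidases and lectins, membrane ubiquitin ligases and their E2 enzymes, derlins, and the p97 complex with its membrane adaptors. Cells were exposed to 1 µM thapsigargin (Tg) for 8 h or for 3 h, or were left untreated, and each of these 3 groups was measured on 2 expression arrays numbered replicate 1 and replicate 2. All cells were of 1 line in the same medium, and the untreated arrays carry no harvest time in their labels. Of the 36 genes, 35 had a probe set named to them alone, SYVN1 being the exception, and 34 reached a signal of 100 on 2 or more of the 6 arrays and were tested, against 12839 of 19775 genes on the whole array. The gene that did not pass was RNF5, which had signals of 98.8 and 45.2 at 8 h, 85.6 and 10.0 at 3 h, and 15.4 and 69.7 in untreated cells. The 35 genes had 83 probe sets in all, and each gene was read from the one with the highest mean log2 signal.

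ERAD removes proteins that fail to fold in the ER. Lectins and mannosidases mark a misfolded glycoprotein, a membrane complex built around a ubiquitin ligase moves it across the membrane and ubiquitinates it, and the ATPase p97 pulls it into the cytosol for the proteasome. Thapsigargin blocks the SERCA pump that fills the ER with calcium, which disturbs folding and sets off the unfolded protein response (UPR), and several ERAD genes are textbook targets of its transcription factors XBP1, ATF6 and ATF4.

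Deposited values were linear MAS5 signal intensities, set to the same trimmed mean on each array, with a median signal of 69.7 to 103 over the 6 arrays. Of 12 listed neural and medulloblastoma markers 9 passed the filter: VIM (31015.6 to 52822.4) and ZIC1 (1967.1 to 3427.2) were read clearly, NES (110.2 to 358.2), MAP2, GLI1 and OTX2 were dim, and ATOH1 and SYP stayed under 100 on all 6 arrays. SOX2 averaged 671.2 at 8 h, 620.7 at 3 h and 1460.4 in untreated cells, SOX9 686.8 at 8 h, 1188.6 at 3 h and 1202.2 in untreated cells, and GLI2 207.6 at 8 h, 486.2 at 3 h and 471.0 in untreated cells. Of other cell types, 1 of 3 endothelial markers passed (signals of 6.1 to 134.9 over all 3), 0 of 2 immune markers with a probe set (5.2 to 140.2), 0 of 2 astrocyte markers (3.2 to 49.9), 2 of 2 epithelial markers (63.0 to 301.7) and 2 of 3 fibroblast markers, with COL1A1 at 17638.9 to 33447.7. The 2 replicate numbers differed in the controls added to the RNA for hybridization, whose geometric mean was between 7762 and 11671 in replicate 1 and between 2718 and 2840 in replicate 2. Each number held all 3 groups, so adjusted p values are given from limma, with Benjamini-Hochberg adjustment over 27616 probe sets, both without a block and with the replicate number as a block. A gene was called at an adjusted p under 0.05. The RNA came from whole cultures and every array was set to the same trimmed mean, so the signals are relative. A change in the share of cells that hold an RNA and a change in its amount per cell cannot be told apart.

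At 8 h every ERAD gene that was called had risen. Taking the fits together, these genes came from each role group except that of the erlins, TMUB1 and NGLY1. The p97 group entered through VCP alone, which was called only with the block. Without the block 6 of 34 rose and 0 fell, where 0.646% of all genes tested rose and 0.210% fell. The 6 were SEL1L, DERL2, EDEM1, SELENOS, ERLEC1 and UBE2J1. At an unadjusted p under 0.05, 12 were higher and 1 lower. The share of all genes at an unadjusted p was not counted, so such counts, here and below, have no background beside them. The count of 6 became 0 without the intensity trend of the fit or without Tg 8 h replicate 1, 1 without Tg 8 h replicate 2 and 2 without untreated replicate 1. With the block 12 rose and 0 fell, against 4.76% and 3.79% of all genes, the added genes being HERPUD1, EDEM3, EDEM2, OS9, DERL1 and VCP. A Local Pooled Error test, which the methods name, was rebuilt with settings chosen here. By it 6 rose, against 1.05% of all genes, with HERPUD1 called and UBE2J1 not. It takes the spread of a gene from probe sets of like signal. The wide gap between the untreated arrays of HERPUD1, given below, therefore weighed little in its call. The median log2 fold change of the 34 genes was 0.20, where the median of all genes tested was -0.09. Both 8 h arrays lay above both untreated arrays for 15 of the 34 genes (44.1%, against 15.3% of all genes), and below them for 2 (5.88%, against 26.7%).

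**Figure D1:**
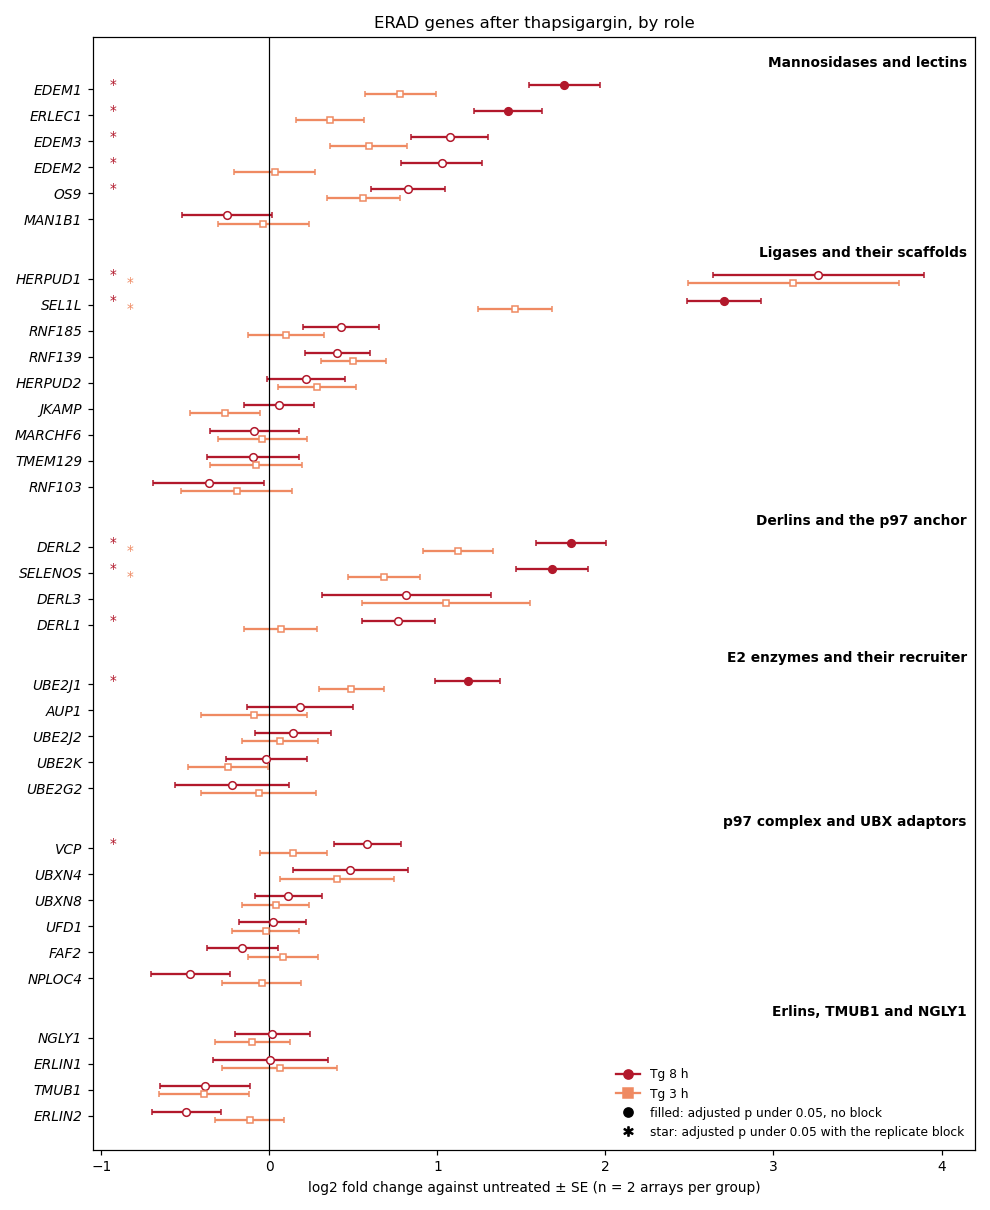
Log2 fold change of the 34 tested ERAD genes against untreated cells at 8 h (circles) and at 3 h (squares), with bars of 1 SE from the limma fit without a block (2 arrays per group), grouped by role. Filled symbols passed an adjusted p of 0.05 without the block and stars mark genes that passed with it: 6 circles are filled, 12 genes have a star at 8 h and 4 at 3 h, and no gene had a call below 0.

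At 3 h 0 of the 34 genes were called without the block in either direction, where 0.0701% of all genes rose and 0% fell. At an unadjusted p under 0.05, 9 were higher, with no share of all genes to set beside this count. With the block 4 rose, SEL1L, HERPUD1, DERL2 and SELENOS, and 0 fell, against 1.17% and 0.0779% of all genes. The rebuilt Local Pooled Error test, with the same pooled spread, called HERPUD1, where it called 0.296% of all genes higher. The median log2 fold change was 0.07 against -0.02 over all genes. Between 8 h and 3 h, 0 genes differed without the block, among the 34 as among all genes (0% higher, 0% lower), with 8 of the 34 higher at 8 h at an unadjusted p under 0.05. With the block 7 were higher at 8 h and 0 lower, against 1.53% and 1.72% of all genes: SEL1L, ERLEC1, SELENOS, EDEM2, EDEM1, UBE2J1 and DERL2. Changes against untreated cells at both times share the same 2 untreated arrays.

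**Figure D2:**
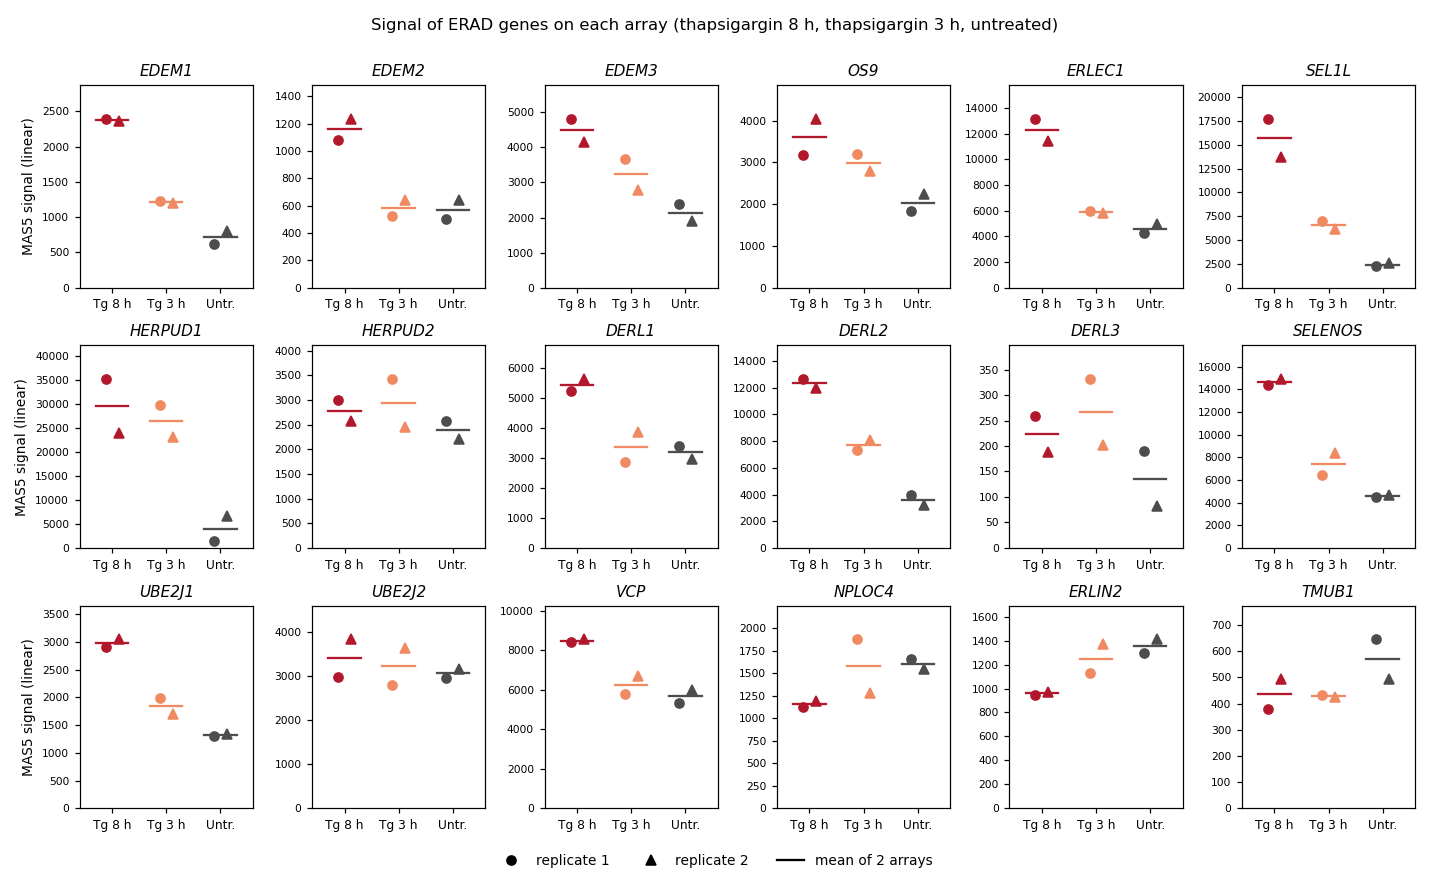
MAS5 signal on each of the 6 arrays, on a linear axis from 0, for the 18 ERAD genes described in full, with circles for replicate 1, triangles for replicate 2 and a line at the mean of the 2 arrays, in the order Tg 8 h, Tg 3 h, untreated. EDEM2 and DERL1 were high only on the 8 h arrays, HERPUD1 was high on all 4 treated arrays, and ERLIN2 and NPLOC4 were lowest on the 8 h arrays.

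Of the enzymes and lectins that read the sugar chains of a misfolded protein, 5 of 6 rose at 8 h with the block, 2 of them also without it. Of all genes tested, 4.76% rose with the block and 0.646% without it. EDEM1, which trims mannose from the glycan and so marks the protein for removal, had signals of 2393.8 and 2368.4 at 8 h, 1225.1 and 1198.4 at 3 h, and 622.7 and 800.0 in untreated cells. The arrays of the 3 groups did not overlap. Its log2 fold change at 8 h was 1.75 ± 0.21 (SE, n = 2 arrays per group), a fold of 3.37, with an adjusted p of 0.0185 in limma without the block. At 3 h the log2 fold change was 0.78, with an adjusted p of 0.68 without the block and 0.0664 with it.

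EDEM2, the family member that acts first on the glycan, had 1080.9 and 1236.1 at 8 h, 522.4 and 644.5 at 3 h, and 505.4 and 638.2 in untreated cells. The 3 h arrays lay over the untreated ones and only the 8 h arrays were high. Its log2 fold change was 1.02 ± 0.24 at 8 h (limma adjusted p 0.147 without the block, 0.00716 with it) and 0.03 at 3 h, and the difference between 8 h and 3 h, 0.99, was called with the block (adjusted p 0.0197). EDEM3 had 4817.2 and 4164.7 at 8 h, 3680.8 and 2792.0 at 3 h, and 2390.6 and 1894.1 in untreated cells. No groups overlapped, and the log2 fold change was 1.07 ± 0.23 at 8 h (limma adjusted p 0.110 without the block, 0.0011 with it) and 0.59 at 3 h (0.0715 with it). A second probe set of EDEM3 gave 1.27 at 8 h and passed without the block as well (adjusted p 0.0448). The 3 h changes of EDEM1, EDEM3 and EDEM2 were thus 0.78, 0.59 and 0.03 on the log2 scale, and whether these differ from each other was not tested.

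ERLEC1 and OS9 are lectins that bind the trimmed glycan and hand the protein to SEL1L. ERLEC1 had 13151.6 and 11407.0 at 8 h, 5966.9 and 5798.7 at 3 h, and 4266.0 and 4917.8 in untreated cells, a log2 fold change of 1.42 ± 0.20 at 8 h (limma adjusted p 0.0312). The 3 h arrays stood only a little above the untreated ones, by 0.36 on the log2 scale, and 8 h exceeded 3 h by 1.06 (adjusted p 0.306 without the block, 0.00656 with it). OS9 had 3180.8 and 4045.1 at 8 h, 3194.9 and 2786.0 at 3 h, and 1834.4 and 2233.7 in untreated cells. Its 8 h and 3 h arrays overlapped and both lay above the untreated ones, with log2 fold changes of 0.83 ± 0.22 at 8 h (limma adjusted p 0.209 without the block, 0.0136 with it) and 0.56 at 3 h (0.192 with it). MAN1B1, a further mannosidase of the pathway, was the 1 gene of this group with no call, at 431.9 and 659.0 at 8 h against 610.8 and 661.1 in untreated cells. This probe set gave a log2 fold change of -0.25 at 8 h and its other tested probe set gave 0.24, so its direction was open.

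The membrane ligase complexes were uneven. Of the 9 tested ligases and scaffold proteins, 1 rose at 8 h without the block and 2 with it, and both are scaffold proteins. The shares of all genes were 0.646% without the block and 4.76% with it. SEL1L, the adaptor that holds the lectins, the derlins and the ligase SYVN1 together, had signals of 17719.6 and 13731.7 at 8 h, 6988.6 and 6201.0 at 3 h, and 2221.3 and 2579.9 in untreated cells. No arrays of different groups overlapped. Its log2 fold change was 2.70 ± 0.22 at 8 h, a fold of 6.52 (limma adjusted p 0.00536 without the block, 1.90e-05 with it), and 1.46 ± 0.22 at 3 h (0.118 without the block, 0.00166 with it). The 8 h level exceeded the 3 h level by 1.25 (0.279 without the block, 0.00614 with it), and 4 probe sets of SEL1L gave 1.85 to 2.98 at 8 h. The highest, 2.98, was from a probe set dim in untreated cells (13.1 and 62.7). It was not called in either fit (limma adjusted p 0.303 without the block, 0.0745 with it).

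HERPUD1, a membrane protein with a ubiquitin-like domain that joins the SYVN1 complex, had the largest log2 fold change of the 34 genes at both times. At 8 h this rank did not hold within replicate 2, where SEL1L (2.412) and DERL2 (1.915) rose more than HERPUD1 (1.86). The signals of HERPUD1 were 35130.9 and 23998.2 at 8 h, 29829.1 and 23064.5 at 3 h, and 1376.1 and 6623.3 in untreated cells. All 4 treated arrays were far above the untreated ones, but the 2 untreated arrays were 2.27 apart on the log2 scale, where the median gap was 0.27 over the 34 genes and 0.36 over all genes. The log2 fold change was 3.27 ± 0.63 at 8 h (limma adjusted p 0.0791 without the block, 0.00596 with it) and 3.12 ± 0.63 at 3 h (0.294 without the block, 0.0252 with it). Within replicate 1 it was 4.67 at 8 h and 4.44 at 3 h, and within replicate 2 it was 1.86 at 8 h and 1.80 at 3 h. Without untreated replicate 2 the fit gave 4.40 at 8 h (adjusted p 0.00413) and 4.25 at 3 h (0.00539), and without untreated replicate 1 it gave 2.13 (0.0881) and 1.99 (0.318). The 8 h and 3 h arrays overlapped, with a difference of 0.15 ± 0.63.

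HERPUD2, its paralog, had 2996.6 and 2573.1 at 8 h, 3425.4 and 2458.9 at 3 h, and 2570.5 and 2216.4 in untreated cells. Both 8 h arrays lay above both untreated ones, but by little, with a log2 fold change of 0.22 ± 0.23 at 8 h and 0.28 ± 0.23 at 3 h and no call in either fit (limma adjusted p 0.851 at 8 h without the block, 0.40 with it). The difference between the paralogs was not tested.

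**Figure D3:**
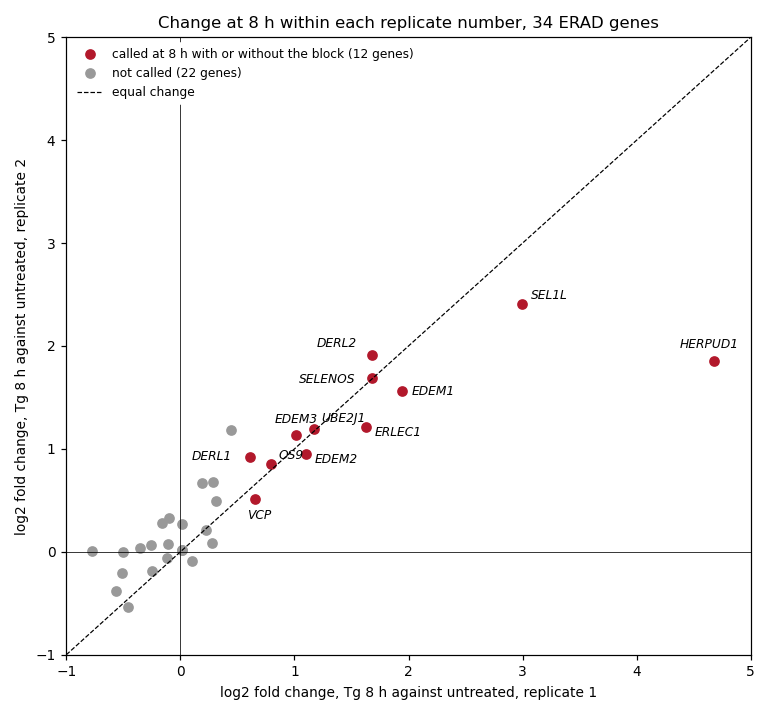
Log2 fold change of the 34 tested ERAD genes at 8 h against untreated cells, within replicate 1 (x axis) and within replicate 2 (y axis), with red points for the 12 genes called with or without the block and grey points for the other 22. All 12 called genes, which were called on these same arrays, lay above 0 in both replicates, as did 21 of all 34. HERPUD1 stood farthest from the line of equal change, at 4.67 in replicate 1 and 1.86 in replicate 2.

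None of the 5 tested membrane ligases was called, nor was JKAMP, a membrane protein that links ERAD to the proteasome. RNF139, a ligase of ERAD and of sterol-regulated degradation, and RNF185, the paralog of RNF5, had both 8 h arrays above both untreated ones and were picked out after their values had been seen. RNF139 had 2096.7 and 2256.9 at 8 h, 2488.9 and 2169.4 at 3 h, and 1686.5 and 1602.6 in untreated cells, a log2 fold change of 0.40 at 8 h and 0.50 at 3 h (limma adjusted p 0.132 and 0.191 with the block). RNF185 had 867.6 and 1014.3 at 8 h, 796.2 and 701.4 at 3 h, and 761.3 and 638.7 in untreated cells. The log2 fold change at 8 h was -0.09 for MARCHF6, the human counterpart of the yeast ligase Doa10, -0.10 for TMEM129, -0.36 for RNF103 and 0.06 for JKAMP, and all 4 had overlapping 8 h and untreated arrays.

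The next group held the derlins, multi-spanning proteins that form part of the retrotranslocation channel, and SELENOS, the selenoprotein that anchors p97 to them. Of these 4 genes, 2 rose at 8 h without the block and 3 with it, against 0.646% and 4.76% of all genes. DERL2 had signals of 12638.1 and 11988.8 at 8 h, 7353.5 and 8109.2 at 3 h, and 3948.7 and 3179.9 in untreated cells. No groups overlapped, and its log2 fold change was 1.80 ± 0.21 at 8 h (limma adjusted p 0.0156) and 1.12 ± 0.21 at 3 h (0.233 without the block, 0.00386 with it). SELENOS had 14362.7 and 14905.6 at 8 h, 6397.7 and 8373.9 at 3 h, and 4489.8 and 4636.4 in untreated cells. Its groups were apart as well, with 1.68 ± 0.21 at 8 h (adjusted p 0.0212) and 0.68 ± 0.21 at 3 h (0.949 without the block, 0.0399 with it).

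DERL1 differed from DERL2 in its values at 3 h. It had 5210.2 and 5619.0 at 8 h, 2871.6 and 3858.9 at 3 h, and 3409.2 and 2961.0 in untreated cells, so that the 3 h arrays fell on both sides of the untreated ones. The log2 fold change was 0.77 ± 0.22 at 8 h (limma adjusted p 0.245 without the block, 0.0187 with it) and 0.07 ± 0.22 at 3 h, where DERL2 had 1.12. Whether DERL1 and DERL2 differ at 3 h was not tested. DERL3, the third paralog, was dim, with 258.2 and 187.6 at 8 h, 331.2 and 202.4 at 3 h, and 189.6 and 82.5 in untreated cells. Its 8 h and untreated arrays overlapped, and the log2 fold change of 0.82 ± 0.50 at 8 h was not called in either fit (adjusted p 0.664 without the block, 0.218 with it) and lay between 0.22 without untreated replicate 2 and 1.42 without untreated replicate 1.

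Of the ubiquitin-conjugating E2 enzymes, which charge the ligases, and AUP1, which recruits one of them, only UBE2J1 was called. UBE2J1 sits in the ER membrane and works with SYVN1. It had 2912.0 and 3042.0 at 8 h, 1989.6 and 1706.2 at 3 h, and 1293.5 and 1333.4 in untreated cells. No groups overlapped, and the log2 fold change was 1.18 ± 0.19 at 8 h (limma adjusted p 0.0458 without the block, 0.00128 with it) and 0.49 ± 0.19 at 3 h. UBE2J2, the other membrane-anchored E2, had 2973.7 and 3828.0 at 8 h, 2805.7 and 3641.0 at 3 h, and 2953.5 and 3162.8 in untreated cells. Its 8 h and untreated arrays overlapped, and the log2 fold change was 0.14 ± 0.23 (adjusted p 0.917 without the block, 0.601 with it). For UBE2G2, UBE2K and AUP1 the 8 h changes were -0.22, -0.02 and 0.18 on the log2 scale, and their 8 h and untreated arrays overlapped.

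In the p97 complex, VCP, which encodes the ATPase itself, had signals of 8396.2 and 8538.2 at 8 h, 5800.0 and 6704.4 at 3 h, and 5344.6 and 5979.1 in untreated cells. The 8 h arrays were above all others, and the log2 fold change was 0.58 ± 0.20 at 8 h (limma adjusted p 0.353 without the block, 0.0162 with it), and 0.14 at 3 h. Neither of its cofactors was called. UFD1 stayed within 8607.9 and 9609.5 on the 6 arrays, with a log2 fold change of 0.02 ± 0.20 at 8 h. NPLOC4, which forms a dimer with UFD1, had 1120.6 and 1187.9 at 8 h, 1873.7 and 1283.8 at 3 h, and 1659.3 and 1541.7 in untreated cells, so that both 8 h arrays were below all others, with a log2 fold change of -0.47 ± 0.24 that was not called (adjusted p 0.571 without the block, 0.162 with it). The membrane adaptors of p97 with a UBX domain, FAF2, UBXN4 and UBXN8, had -0.16, 0.48 and 0.11 at 8 h, each with overlapping arrays.

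ERLIN2, a subunit of the erlin complex that brings activated inositol trisphosphate receptors to ERAD, had the lowest log2 fold change of the 34 genes at 8 h. Its signals were 942.5 and 974.5 at 8 h, 1127.8 and 1372.0 at 3 h, and 1293.0 and 1409.3 in untreated cells. Both 8 h arrays were below all other arrays, but the log2 fold change of -0.49 ± 0.21 was not called in either fit (limma adjusted p 0.485 without the block, 0.0959 with it). ERLIN1, its partner, had 0.005 ± 0.34 at 8 h, with signals of 1882.6 and 2881.0 at 8 h against 1754.6 and 3071.5 in untreated cells. TMUB1, a ubiquitin-like membrane protein, had 378.0 and 494.0 at 8 h, 434.0 and 425.6 at 3 h, and 644.9 and 492.4 in untreated cells, with a log2 fold change of -0.38 ± 0.27 and overlapping arrays (adjusted p 0.72 without the block, 0.405 with it). NGLY1, the cytosolic enzyme that strips glycans from extracted proteins, had 0.02 at 8 h.

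Several called genes had more than 1 probe set, and the probe sets of a gene gave the same direction. The 12 genes called in either fit had 29 tested probe sets, all with a log2 fold change above 0 at 8 h, from 0.58 to 3.27. Apart from the probe set read for each gene, 17 were tested, of which 3 passed without the block and 12 with it. ERLEC1, DERL2 and UBE2J1, called without the block, had no further probe set that passed without it. The lowest limma adjusted p without the block was 0.0546 for ERLEC1, 0.052 for DERL2 and 0.0871 for UBE2J1. The further tested probe sets of ERLEC1 and DERL2 passed with the block. DERL1 had a higher change in 2 further probe sets, 1.06 and 1.10, than in the one read, 0.77, and these passed with the block (limma adjusted p 0.00165 and 0.00121). In UBE2J1 the 6 probe sets ran from 0.77 to 1.38. Probe sets of 1 gene share the same RNA and are not replicates. ERLIN2 had a second tested probe set at -0.57 and a dim one, not tested, at 1.86, with signals of at most 84.8.

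**Figure D4:**
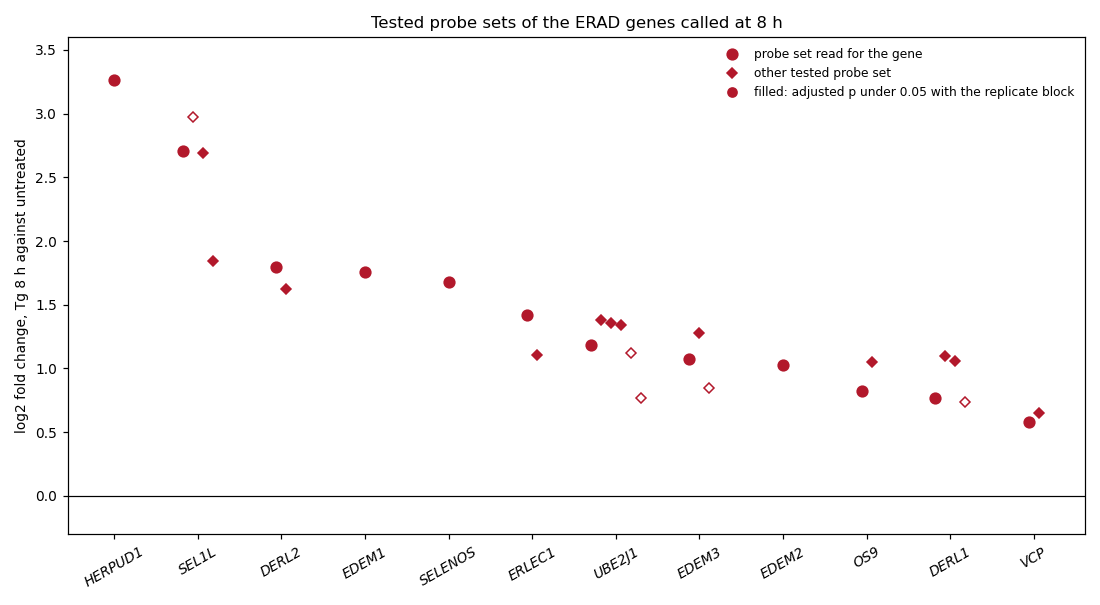
Log2 fold change at 8 h against untreated cells for the 29 tested probe sets of the 12 ERAD genes called in either fit, genes ordered by the change of the probe set read for them (circles), with the other 17 tested probe sets as diamonds. Filled symbols passed an adjusted p of 0.05 with the replicate block (24 of 29), and all 29 lie above 0.

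The remaining 16 tested genes were neither called nor among the lowest 3 or the paralogs above. Their log2 fold changes ran from -0.36 to 0.48 at 8 h and from -0.27 to 0.50 at 3 h, over signals of 431.9 to 14978.8, and the lowest limma adjusted p among them at either time was 0.546 without the block and 0.132 with it. All 12 called genes had a higher signal at 8 h than untreated in both replicates, but they were called on these same arrays. Of the 34 tested genes, 21 were higher at 8 h in both replicates, where 3339 of 12839 genes were. Of the 12, 10 had both 8 h arrays above both 3 h arrays, HERPUD1 and OS9 being the exceptions. Both 8 h arrays lay above both 3 h arrays for 13 of the 34 genes (38.2%, against 14% of all genes). Both lay below for 3 (8.82%, against 22.6%). Among the 12 called genes, the replicates were closest for SELENOS, at 1.68 in replicate 1 and 1.69 in replicate 2. Apart from HERPUD1, they were farthest apart for SEL1L, at 3.00 in replicate 1 and 2.41 in replicate 2.

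The sequence before the start of each gene was searched for elements that UPR transcription factors are known to bind. RefSeq windows (assembly GRCh38.p14) of 300 bases, 250 before and 50 after the start, were found for 26 of the 36 genes. Motifs were searched on both strands without allowing mismatches. The ER stress response element ERSE (CCAAT and CCACG with 9 bases between) was in 0 of the 26, and in 0.0916% of 27305 genes with a window. ERSE-II (ATTGG and CCACG with 1 base between) was in HERPUD1 alone, and in 0.0696% of all genes. The core of the XBP1-type element, TGACGTG, was in UBE2J1, VCP and UBXN4 (2.40% of all genes), and the C/EBP-ATF element, TGATGNAA, in HERPUD1 (4.46%). The windows of the called genes that held a match are printed 5′ to 3′ along the gene, with the matched bases in capitals, so that the letters behind these counts can be seen. They are HERPUD1 at chr16:56931892-56932191 (plus strand), UBE2J1 at chr6:89352673-89352972 (minus strand) and VCP at chr9:35072576-35072875 (minus strand).
HERPUD1: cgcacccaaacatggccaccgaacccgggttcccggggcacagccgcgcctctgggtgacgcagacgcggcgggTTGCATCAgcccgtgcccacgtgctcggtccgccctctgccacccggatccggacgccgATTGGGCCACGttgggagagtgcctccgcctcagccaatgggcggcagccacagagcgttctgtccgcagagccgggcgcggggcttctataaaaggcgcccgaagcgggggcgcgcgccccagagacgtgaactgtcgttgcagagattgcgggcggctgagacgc
UBE2J1: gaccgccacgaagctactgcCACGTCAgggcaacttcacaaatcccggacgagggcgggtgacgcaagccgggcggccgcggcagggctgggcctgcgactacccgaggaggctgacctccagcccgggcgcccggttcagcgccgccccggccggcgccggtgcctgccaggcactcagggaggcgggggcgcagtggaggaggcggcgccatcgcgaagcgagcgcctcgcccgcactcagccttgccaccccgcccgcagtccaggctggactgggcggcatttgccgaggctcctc
VCP: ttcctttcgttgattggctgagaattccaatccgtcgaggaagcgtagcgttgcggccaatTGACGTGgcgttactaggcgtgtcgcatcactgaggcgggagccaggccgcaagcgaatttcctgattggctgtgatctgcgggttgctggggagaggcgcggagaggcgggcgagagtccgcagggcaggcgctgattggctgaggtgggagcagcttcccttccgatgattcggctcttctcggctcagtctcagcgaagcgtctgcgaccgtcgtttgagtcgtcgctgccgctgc
Counting the start as 0, the capitals in HERPUD1 are the C/EBP-ATF element, on the opposite strand, at -176 to -169 and ERSE-II at -117 to -107. Those in UBE2J1 are the XBP1-type core on the opposite strand at -230 to -224, and those in VCP the same core at -189 to -183. A match of letters is not a measured site, and a search without mismatches passes over elements that differ by 1 letter. In the HERPUD1 window ccaat is followed, after 9 bases, by ccaca, which is 1 letter from ERSE and was not counted. The count of 0 for ERSE is therefore a count of exact matches only. SEL1L, EDEM1, EDEM2, EDEM3, ERLEC1, OS9, DERL2 and SELENOS had a window with no match, and HERPUD2, UBE2J2, NPLOC4 and TMUB1 had none either.

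A second list of 46 genes with roles in ERAD or in handling its substrates, none of them among the 36, was read in the same way, and the lists were not tested against each other. Of these, 42 had a probe set of their own and all 42 passed the filter. Without the block 0 rose and 0 fell at 8 h, where 2 were higher and 1 lower at an unadjusted p under 0.05. With the block 3 rose and 1 fell at 8 h, and 1 rose at 3 h, shares of 7.14%, 2.38% and 2.38% where all genes had 4.76%, 3.79% and 1.17%, so that these counts were close to the background. The median log2 fold change at 8 h was 0.005, against 0.20 for the 34 ERAD genes and -0.09 for all genes. TXNDC11, a thioredoxin-domain partner of the EDEM proteins, had 859.0 and 753.8 at 8 h, 491.8 and 665.4 at 3 h, and 472.7 and 349.0 in untreated cells, with a log2 fold change of 0.99 at 8 h (limma adjusted p 0.225 without the block, 0.0381 with it). DNAJC10, a reductase that works with EDEM1, had 2955.6 and 2859.8 at 8 h, 2046.4 and 1589.3 at 3 h, and 1951.7 and 1731.7 in untreated cells, 0.66 at 8 h (0.305 without the block, 0.0221 with it) and -0.03 at 3 h. These 2 had 8 h arrays above all others.

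INSIG1, which brings HMG-CoA reductase to its ligases, had overlapping groups, and replicate 2 read higher than replicate 1 in each of them, with 2082.3 and 3218.4 at 8 h, 2189.0 and 3789.0 at 3 h, and 1163.6 and 2376.6 in untreated cells. Its log2 fold change was 0.64 at 8 h and 0.79 at 3 h, called only with the block (limma adjusted p 0.029 and 0.036). TRIM13, an ER membrane ligase, was the lowest of the 42 at 8 h. It had 406.5 and 513.3 at 8 h, 871.2 and 832.5 at 3 h, and 1288.1 and 799.0 in untreated cells, and its log2 fold change of -1.15 passed with the block only (0.169 without the block, 0.0209 with it). The 8 h arrays of TRIM13 were below all others, and within replicate 1 and replicate 2 it changed by -1.66 and by -0.64.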

How the data were processed

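RNA of Daoy cells was measured on 6 Affymetrix arrays, 2 each at Tg 8 h, Tg 3 h and untreated, with groups and replicate numbers taken from the sample titles. The authors deposited MAS5 signal intensities, summarized per probe set and scaled to a common trimmed mean per array. The intensities were log2-transformed here. Of 54675 probe sets, 41097 carried 1 gene symbol in the platform annotation, 1801 several and 11777 none, and probe sets with several were left unnamed.

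limma 3.58.1 (R 4.3.3; lmFit, eBayes with an intensity trend, two-sided) was fitted over all 6 arrays and 27616 probe sets, without and with the replicate number as a block. Nothing in the labels says that a number marks a shared culture, while the paper's methods speak of independent experiments, and p-values cover only the spread among these arrays. Arrays of the same number deviated from their group means together (correlations 0.259 to 0.323 across probe sets, which are not independent), and the hybridization and 18S rRNA controls (18S 717.9 to 1145.7 in replicate 1 and 2608.4 to 4271.7 in replicate 2) told the numbers apart. With 2 arrays against 2, an exact two-sided permutation test cannot go below 0.333, so none was run. The Local Pooled Error test, which the methods name without its settings, was rebuilt with 100 bins and a spline of 10 degrees of freedom, both chosen here. The fits were tested on simulated data.

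The genes, lists and tests were chosen with earlier results of these data known. All 36 genes are named. Values on every array are given for those called at either time in either fit, their paralogs and the 3 lowest at 8 h, and, of the second list, for called genes. The exceptions, and the UBE2J1 and VCP promoters, were chosen after their values were seen. Promoters and motifs were handled in Python 3.11.15 with pandas 2.3.3. Alternatives were no intensity trend, quantile normalization, median centring, other filters and floors for dim signals, only the 4 arrays compared, the mean of all probe sets, and each array left out in turn. Gene coordinates come from RefSeq, since the files name no genome build.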

Additional observations from a re-analysis of the deposited data

How the results depend on the processing

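With the replicate number as a block 12 ERAD genes rose at 8 h, against 6 without it, 4 at 3 h, against 0, and 7 differed between 8 h and 3 h, against 0. The block raised the counts over all genes too. The share called higher went from 0.646% to 4.76% at 8 h and from 0.0701% to 1.17% at 3 h. Between 8 h and 3 h it went from 0% to 1.53% higher and from 0% to 1.72% lower. In the second list the block gave 3 higher and 1 lower at 8 h and 1 higher at 3 h, against 0 each. Without the intensity trend 0 ERAD genes rose at 8 h in limma, with 12 at an unadjusted p under 0.05. At 3 h, 1 rose with the Local Pooled Error test and 1 with quantile normalization. The other 8 alternatives for the 8 h count, among them the Local Pooled Error test, gave 4 to 6. Leaving out single arrays gave 0 to 5 genes at 8 h (0 without Tg 8 h replicate 1, 1 without Tg 8 h replicate 2, 2 without untreated replicate 1) and 0 to 1 at 3 h (1 without untreated replicate 2), and 0 in the other counts of these lists. The lone array of a group was then assumed to vary like the others.

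Of single genes, SEL1L at 8 h lost its call without Tg 8 h replicate 1 and UBE2J1 and ERLEC1 lost theirs whichever array was left out, while without the intensity trend all 6 were lost. DERL2 was also lost without the one or the other 8 h array, and EDEM1 and SELENOS without the one or the other 8 h array or untreated replicate 1. ERLEC1 lost its call with only the 4 arrays compared, UBE2J1 kept its call in 4 of 10 other settings, and the cause was not tested. The median at 8 h was 0.293 after median centring and 0.168 to 0.381 with single arrays left out, and that at 3 h 0.086 with quantile normalization, 0.168 with the mean of all probe sets and 0.066 to 0.182 with single arrays left out.

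Reversals touched only changes that were not called. With the mean of all probe sets, ERLIN2 was at 0.27 at 8 h and HERPUD2 at -0.13 at 3 h. With single arrays left out, the range was -0.04 to 0.33 for UBE2J2 at 8 h, and at 3 h -0.14 to 0.20 for EDEM2, -0.15 to 0.28 for DERL1, -0.12 to 0.25 for UBE2J2, -0.32 to 0.23 for NPLOC4 and -0.26 to 0.023 for ERLIN2. Only 2 arrays per group limit the precision of every value.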
